A study of Bos taurus with 22 samples.

Results

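Exogenous GLP-2 was compared with vehicle in the jejunal mucosa of steers whose samples held little B cell follicle RNA. The comparison set all 11 steers injected with GLP-2 against 5 of the 11 steers injected with vehicle, so it used 16 of the 22 steers. The 5 vehicle steers were those with the lowest mean log2(CPM + 1) of MS4A1, CD79A, CD79B, CR2 and CXCL13, where CPM is the count scaled to a library total of 1e+06. They are called follicle-poor vehicle steers here, and the 6 vehicle steers left out are called other vehicle steers. Because the vehicle steers were picked on values of the same libraries, the 5 markers and all lymphocyte genes are described without a test, and p-values of other genes do not allow for the choice.

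The animals were Holstein steers 10 to 12 months of age, weighing 220 to 294.1 kg, and all of them received raw corn starch into the abomasum (3.94 g per kg body weight daily) for 7 d. Control steers (n = 5) received abomasal water and vehicle injections of bovine serum albumin in saline, and GLP-2 steers (n = 5) received water and 100 µg GLP-2 per kg body weight daily under the skin. Casein steers (n = 6) received 1.30 g sodium caseinate per kg body weight daily with the starch and vehicle injections, and casein + GLP-2 steers (n = 6) received both the caseinate and GLP-2. The 4 treatments were assigned within blocks of similar body weight, and each library came from mucosa of 1 steer, so treatment replicates are animals. Follicle-poor vehicle steers comprised 4 casein steers and 1 control steer, other vehicle steers comprised 2 casein and 4 control steers, and the GLP-2 injected steers comprised 6 casein-infused and 5 water-infused animals. Infusion was therefore uneven between the groups, and values within casein-infused steers are given where they turned or differed most from the pooled ones. Blocks were uneven as well. No follicle-poor vehicle steer came from block 1 or block 3. Block 2 gave the follicle-poor steers control block 2 and casein block 2, but only casein + GLP-2 block 2 among GLP-2 injected steers.

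GLP-2 is a peptide hormone that enteroendocrine L cells secrete after a meal, and it is known for increasing mucosal growth and the digestive capacity of the small intestine. Its receptor lies mainly on cells beneath the epithelium, and ERBB ligands and insulin-like growth factors are among the messengers thought to carry its effect to enterocytes. The jejunum of cattle also holds Peyer's patches, in which B cells form follicles with proliferating germinal centers. A scraping that includes a follicle adds B cell and cell cycle RNA and lowers the share of epithelial RNA. In bulk tissue, fewer cells of a type and less RNA per cell cannot be told apart.

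Library totals ranged from 8809666 to 28447810 counts with GLP-2, from 9003688 to 23666186 in follicle-poor vehicle steers and from 11011029 to 20655744 in other vehicle steers. Mean total count (2-sided exact permutation test, p = 0.538) and mean body weight (exact permutation p = 0.801, 251.7 against 254.46 kg) did not differ detectably between GLP-2 and follicle-poor vehicle steers. Tissue identity was in keeping with small intestine in that SI, MGAM and LCT, the brush border sucrase-isomaltase, maltase-glucoamylase and lactase, were counted in each of the 16 steers.

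The marker mean that set the groups was 1.01 in control block 2, 1.67 in casein block 4, 1.94 in casein block 6, 2.64 in casein block 5 and 3.24 in casein block 2. With GLP-2 it ran from 0.941 through a median of 1.49 to 2.64. Casein block 2 lay above every GLP-2 steer, and the other 4 follicle-poor steers lay inside the GLP-2 range. Just outside the selection stood control block 4 at 4.27 and casein block 1 at 4.57, and the remaining 4 vehicle steers lay between 7.13 and 8.34. The groups were thus closer in marker content than the full design but not equal, at 1.54 ± 0.524 (SD, n = 11) with GLP-2 and 2.10 ± 0.865 (n = 5) in follicle-poor vehicle steers, against 6.59 ± 1.74 (n = 6) in other vehicle steers.

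**Figure D1:**
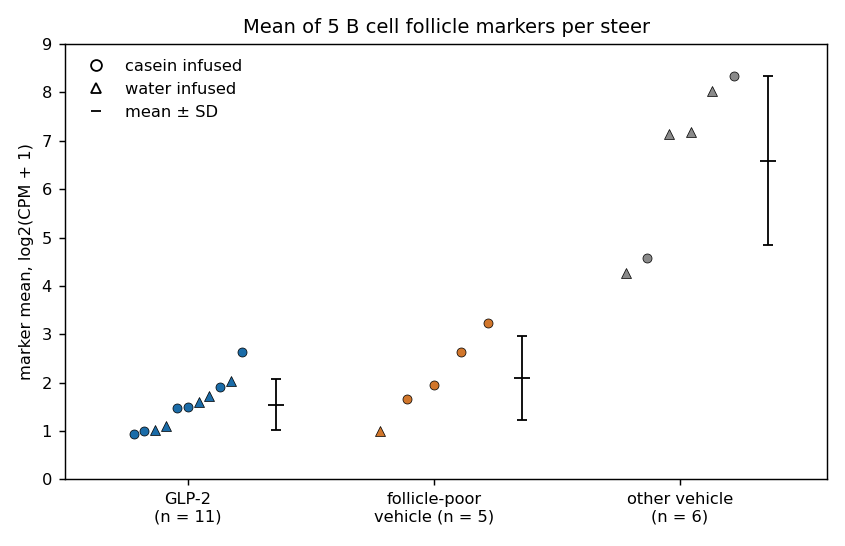
Mean log2(CPM + 1) of MS4A1, CD79A, CD79B, CR2 and CXCL13 per steer, with circles for casein-infused and triangles for water-infused animals and a bar for the mean ± SD of each group. The 5 follicle-poor vehicle steers lie between 1.01 and 3.24, near the GLP-2 steers, and the 6 other vehicle steers start at 4.27.

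Single markers also lay lower with GLP-2 than in follicle-poor vehicle steers. MS4A1, the B cell surface protein CD20, stood at 0.793 CPM in control block 2, 2.06 in casein block 4, 5.54 in casein block 6, 9.73 in casein block 5 and 21.9 in casein block 2, and with GLP-2 at 0.356 to 9.32 CPM (median 2.69). CXCL13, the chemokine that draws B cells into follicles, stood at 0.176 to 3.40 CPM in follicle-poor vehicle steers and at 0.0863 to 1.79 with GLP-2, a log2 difference of -1.60 ± 0.737 (SE). The complement receptor CR2 and the B cell receptor subunit CD79A, which also set the selection, differed by -1.23 and -0.52, and CD79B by -0.36. Without casein block 2 the values were -0.24 for CR2, -0.28 for CD79A and -0.46 for MS4A1, and the median of the 5 markers went from -1.23 to -0.33. In the 29 tested genes of a list of other B cell and germinal center genes, which the choice did not use directly, the median log2 fold change was -0.18, against -1.89 in all 22 steers. Choosing the 5 vehicle steers on these other B cell genes picked the same 5 animals.

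Differences between GLP-2 and vehicle were smaller when the vehicle steers were follicle-poor, and no gene passed the test. By the quasi-likelihood test of edgeR, adjusted over all genes by the Benjamini-Hochberg method, 0 of 14569 genes (0%) reached an adjusted p of 0.05 or of 0.1, and 0.783 was the smallest value found. A gene is said to be at nominal p here where its unadjusted p is no greater than 0.05. In total 873 genes (5.99%) were at nominal p, 407 (2.79%) on the higher and 466 (3.20%) on the lower side with GLP-2. The DESeq2 Wald test likewise called 0 genes, with 1035 at nominal p and a smallest adjusted p of 0.218. With the body weight block as a term the count at nominal p was 201. Leaving out casein block 2 gave 409 and leaving out control block 2 gave 1471.

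Across all 22 steers the same edgeR test called 1881 of 13928 genes (13.5%) at the adjusted threshold of 0.05, 715 higher (5.13%) and 1166 lower (8.37%) with GLP-2, and 689 with the block as a term. With the marker mean as a covariate it called 0 there, with 343 at nominal p. That fit separates injection from marker content poorly, because the 2 largely went together. The marker mean was 0.941 to 2.64 in GLP-2 steers and 4.27 to 8.34 in the 6 other vehicle steers, and it came from the same libraries after treatment. The median standard error of a log2 fold change was 0.237 against follicle-poor vehicle steers and 0.217 in all 22, while the median absolute log2 fold change was 0.201 and 0.340. The effect of having fewer vehicle steers was not isolated. Of the tested genes, 9984 (68.5%) had a 95% interval inside -1 to 1 against follicle-poor vehicle steers, and 3645 (25.0%) inside -0.5 to 0.5.

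The 715 genes called higher in all 22 steers had a median log2 fold change of 0.80 there, of 0.48 against follicle-poor vehicle steers and of 1.11 against other vehicle steers. For the 1166 genes called lower, the medians were -0.77, -0.33 and -1.04. These comparisons share the GLP-2 steers, and the first includes the vehicle steers of the other 2, so the values are set side by side without a test. The value from all 22 steers lay outside the 95% interval of the follicle-poor comparison for 64 of the genes called higher and for 516 of those called lower. The genes were picked for their values in all 22 steers, so smaller values in a part of those steers were favoured by the choice. Both the medians and the interval counts are therefore a description and not a test.

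**Figure D2:**
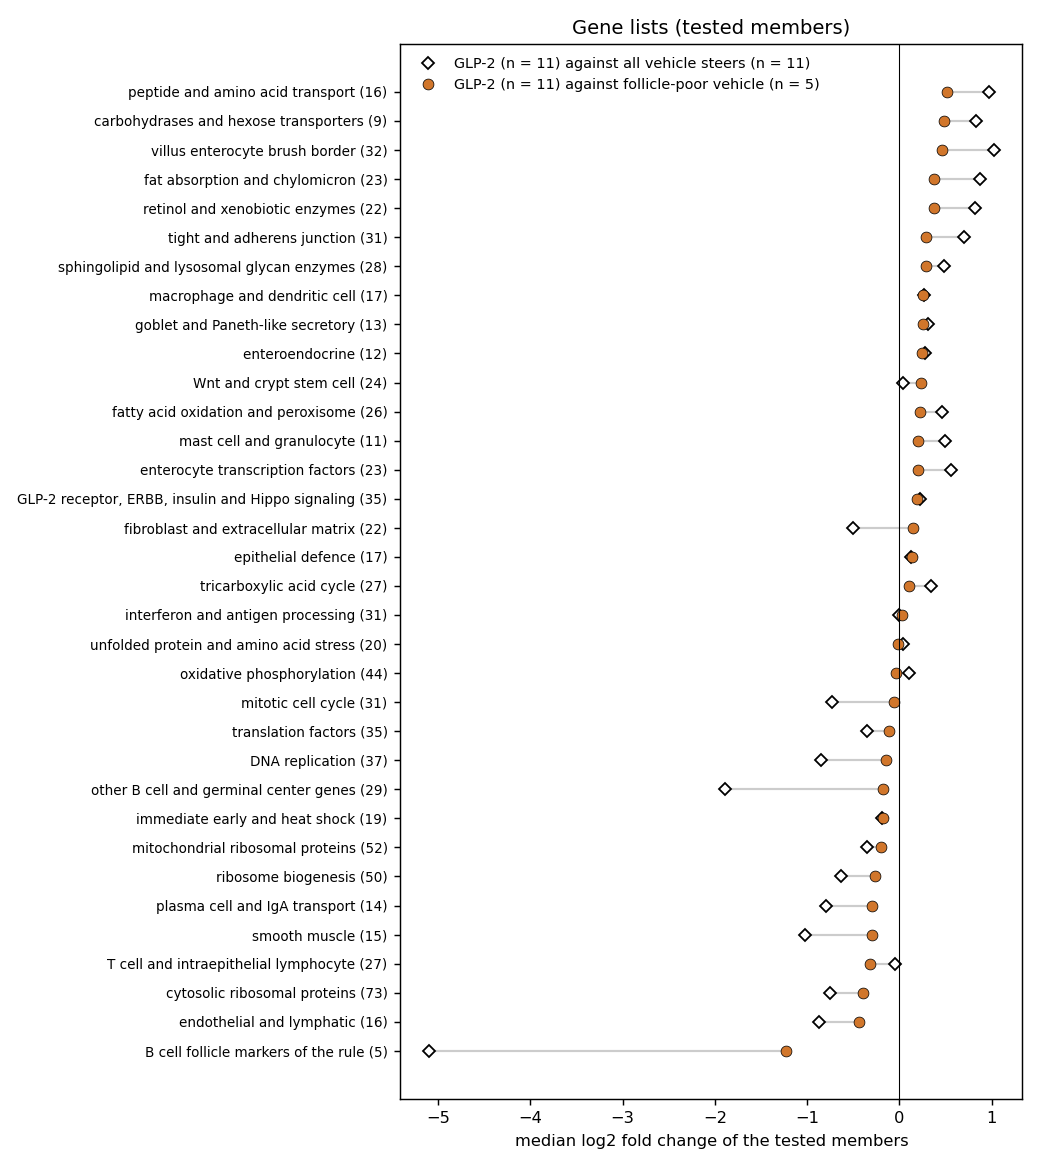
Median log2 fold change (GLP-2 over vehicle) of the tested members of 34 gene lists, with the number of members in brackets, filled circles against 5 follicle-poor vehicle steers and open diamonds against all 11 vehicle steers. The circle of DNA replication lies at -0.14 where its diamond lies at -0.85, and the circle of villus genes lies at 0.46 where its diamond lies at 1.03.

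Carbohydrases and hexose transporters, which digest starch and milk sugar and carry the products across the enterocyte, had higher mean levels with GLP-2 than in follicle-poor vehicle steers in all 9 tested members, but none passed the adjusted test and 1 was at nominal p. Their median log2 fold change was 0.49, against 0.83 in all 22 steers and 1.78 against other vehicle steers, and the median over all tested genes was 0.006. With the marker mean as a covariate the list median was 0.11. LCT, the lactase gene (chromosome 2, bases 61535026 to 61583839 of ARS-UCD1.2), was at 278 CPM in casein block 2, 999 in casein block 5, 1171 in casein block 4, 2616 in casein block 6 and 3380 in control block 2, and ran from 682 through 3271 to 7511 CPM with GLP-2. The groups overlapped widely, and the follicle-poor vehicle steer with the highest marker mean had the least LCT of the follicle-poor steers. The log2 fold change of LCT was 1.06 ± 0.57 (SE; 95% interval -0.14 to 2.26), against 3.24 for other vehicle steers.

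SLC5A1 (chromosome 17, bases 70570574 to 70620771 of ARS-UCD1.2), which encodes the sodium-glucose cotransporter SGLT1, stood at 248 CPM in casein block 2, 378 in casein block 4, 426 in casein block 5, 945 in casein block 6 and 1012 in control block 2. With GLP-2 it ran from 351 through 1056 to 3087 CPM. Its log2 fold change of 1.05 had a 95% interval of 0.006 to 2.10, and it was the 1 gene of the 9 at nominal p. Without casein block 2 the estimate was 0.83, and without control block 2 it was 1.32.

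MGAM had a log2 fold change of 0.53 (95% interval -0.22 to 1.27) and TREH, the trehalase, one of 0.49 (-0.12 to 1.10). SI, which with MGAM finishes starch digestion, was at 604 to 732 CPM in 4 follicle-poor steers and at 1871 in casein block 6, a level above the GLP-2 maximum of 1858. Its log2 fold change was 0.23 (95% interval -0.43 to 0.88), against 1.34 for other vehicle steers. For SI a GLP-2 difference larger than about 0.88 on the log2 scale lay outside the interval, whereas LCT and SLC5A1 allowed differences above 2. Over the fits without 1 steer the SI estimate ran from 0.10 to 0.67, so the limit for SI depended on which steers were used.

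The facilitative transporters SLC2A2 (GLUT2) and SLC2A5 (GLUT5) had log2 fold changes of 0.57 (95% interval -0.37 to 1.52) and 0.32 (-1.05 to 1.68). SLC2A5 ranged from 0.174 to 47.3 CPM within the GLP-2 steers, so its interval was the widest among these genes, and its sign turned with the block as a term (-0.22). Neither transporter was separable from 0.

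**Figure D3:**
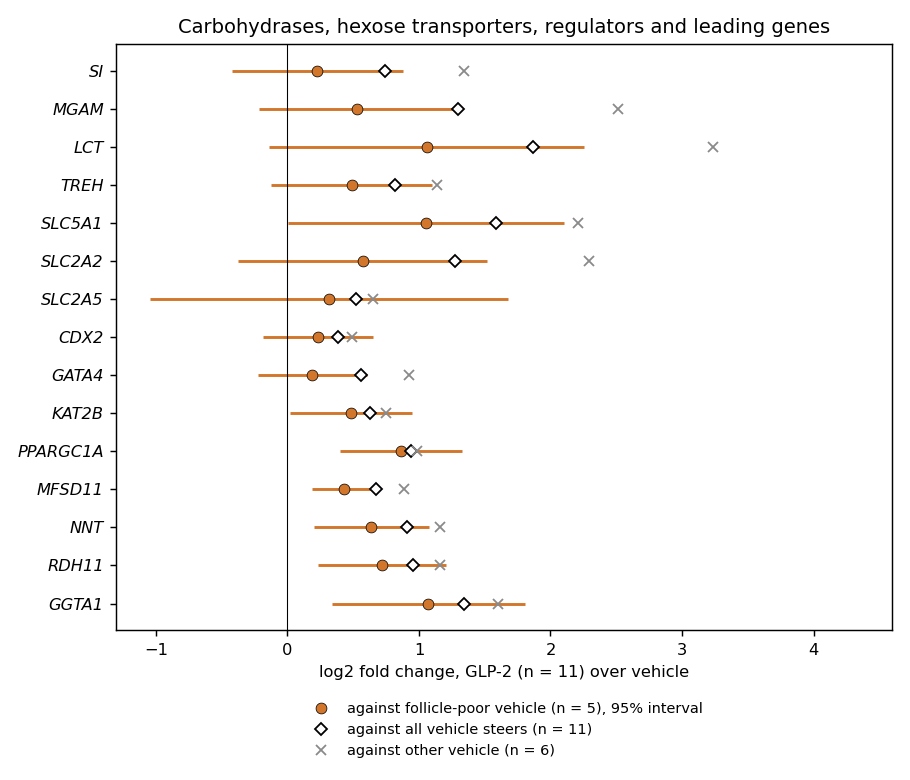
Log2 fold change of GLP-2 (n = 11) over vehicle for carbohydrase, hexose transporter, transcription factor and leading genes, with the 95% interval drawn for the comparison with 5 follicle-poor vehicle steers, open diamonds against all 11 vehicle steers and crosses against the 6 other vehicle steers. LCT moves from 3.24 against other vehicle steers to 1.06, while PPARGC1A lies at 0.99 and 0.86.

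Among transcription factors and coactivators that set the enterocyte programme, the acetyltransferase gene KAT2B had a log2 fold change of 0.48 (95% interval 0.02 to 0.94). KAT2B stood at 26.8 CPM in casein block 4, 28.7 in casein block 2, 39.6 in casein block 5, 48.1 in control block 2 and 53.2 in casein block 6, and at 31.9 to 80.7 CPM with GLP-2, so the groups overlapped. CDX2 (0.23) and GATA4 (0.19) had intervals that included 0, and both had their lowest follicle-poor value in casein block 2. Of 23 tested members of the list, 17 had a value above 0, 0 passed the adjusted test and 3 were at nominal p, all of them on the higher side, KAT2B and PPARGC1A among them. The list median was 0.20, against 0.56 in all 22 steers. It was 0.053 both with the body weight block as a term and with the marker mean as a covariate, where KAT2B had 0.43 and 0.34.

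PPARGC1A, the PGC-1alpha coactivator of mitochondrial and fatty acid oxidation genes, differed about as much against either set of vehicle steers. The gene lies on chromosome 6 (bases 43380463 to 43501184 of ARS-UCD1.2). It was at 5.42 CPM in casein block 5, 6.87 in control block 2, 8.53 in casein block 4, 9.93 in casein block 6 and 10.2 in casein block 2, and ran from 9.79 through 15.6 to 21.7 CPM with GLP-2. Casein block 6 and casein block 2 reached just above the lowest GLP-2 steer. Its log2 fold change was 0.86 ± 0.22 (SE; 95% interval 0.40 to 1.33) here, 0.94 in all 22 steers and 0.99 against other vehicle steers, and 0.77 within casein-infused steers alone. The edgeR adjusted p was 0.783, so it did not pass the test.

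PPARGC1A belongs to the 12 genes on the higher side with the strongest p-values here, and others of that group are given as a description, since they were picked for these values. MFSD11, a membrane protein of the major facilitator family, stood at 44.5 to 60.4 CPM in follicle-poor vehicle steers and at 56.4 to 89.4 CPM with GLP-2, a log2 fold change of 0.43 (95% interval 0.19 to 0.67), against 0.89 for other vehicle steers. NEO1, the netrin and RGM receptor neogenin, had 0.81. ACER3, an alkaline ceramidase, had 0.68 and ZFYVE9, an anchor of SMAD proteins in TGF-beta signaling, 0.67.

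For NEO1, ACER3 and ZFYVE9 the values against other vehicle steers were 0.97, 0.77 and 0.73, each within 0.2 of the value here. The urate transporter gene SLC2A9 was at 0 to 1.78 CPM in follicle-poor vehicle steers and at 1.69 to 5.57 CPM with GLP-2 (log2 fold change 1.68), CREB3L4, a membrane-bound transcription factor, had 0.92, and RWDD4 had 0.50. BDH1, the ketone body enzyme 3-hydroxybutyrate dehydrogenase, had 1.31 here and 0.28 against other vehicle steers, a larger value here than there. All of these groups overlapped, and for none of them was the adjusted p below 0.783.

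PRSS2 and BOLA-DYB were detected in some steers and absent from others, so their fitted fold changes are not quoted. PRSS2, a trypsinogen gene usually expressed in pancreas, had 480 to 1171 counts in 5 GLP-2 steers and 0 or 1 count in the other 6 and in the 5 follicle-poor vehicle steers. Among other vehicle steers, casein block 1 had 999 counts and casein block 3 had 428. The on or off pattern of PRSS2 thus occurred with and without GLP-2. BOLA-DYB, a class II histocompatibility gene, had 1 count in all 5 follicle-poor steers together and 0 to 64 counts in the GLP-2 steers, and reached 49 counts in the other vehicle steers.

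**Figure D4:**
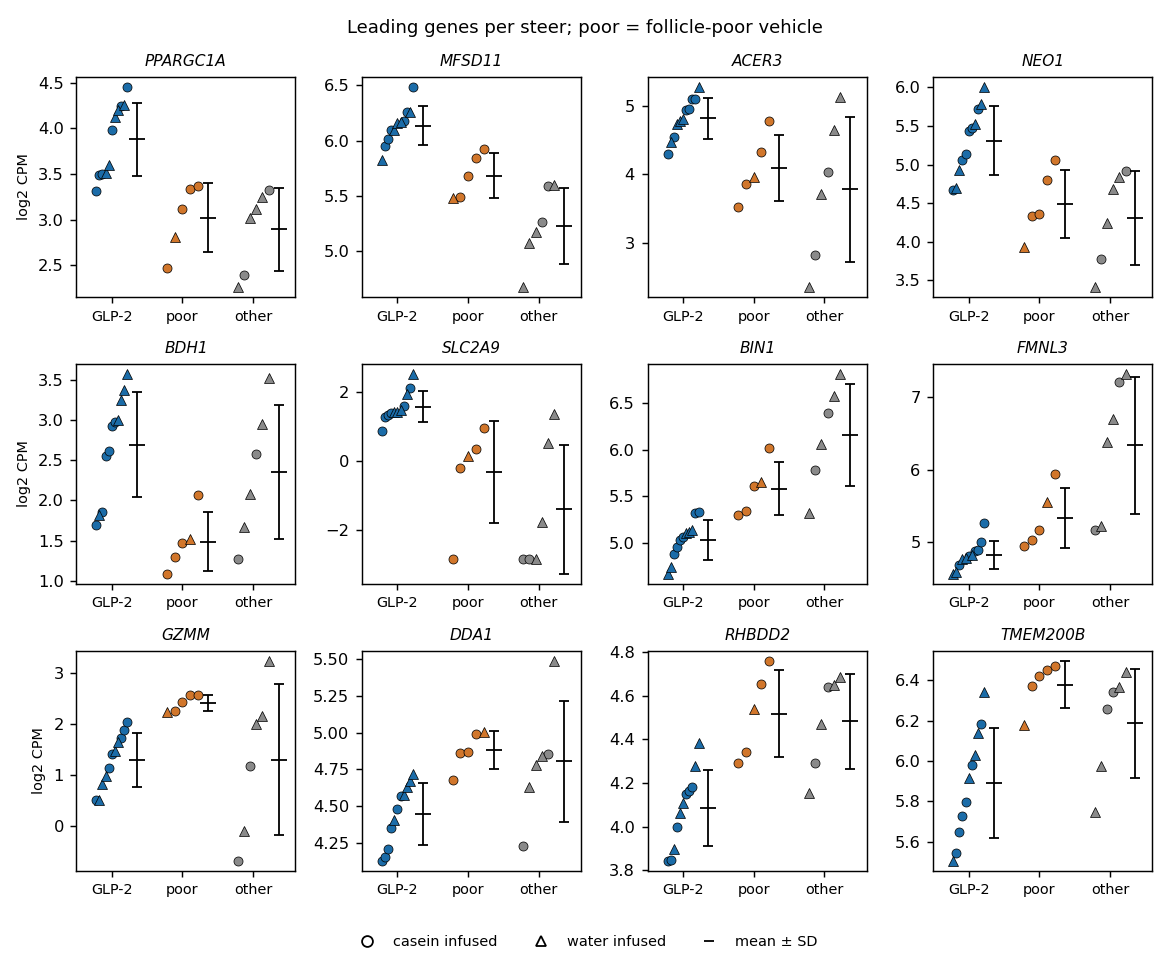
Log2 CPM per steer of 12 genes with small p-values in the comparison of GLP-2 with follicle-poor vehicle steers, with circles for casein-infused and triangles for water-infused steers and a bar for the mean ± SD. Of the 12, GZMM shows no overlap between GLP-2 steers and follicle-poor vehicle steers, and PPARGC1A overlaps by 2 vehicle steers.

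On the side lower with GLP-2, 4 genes (0.0275% of those tested) had every GLP-2 steer below every follicle-poor vehicle steer, and 0 genes had the reverse. GZMM, which encodes granzyme M of cytotoxic lymphocytes, stood at 4.58 CPM in control block 2, 4.66 in casein block 5, 5.25 in casein block 4, 5.80 in casein block 2 and 5.86 in casein block 6, and at 1.29 to 3.99 CPM with GLP-2. Other vehicle steers covered the whole span, from 0.481 to 9.35 CPM. As a lymphocyte gene it is described only, with a log2 fold change of -1.11. The other three, BET1L, ZKSCAN7 and POLR2C, were noticed after their values were seen, with log2 fold changes of -0.32, -0.53 and -0.26. BET1L is a Golgi SNARE protein and POLR2C a subunit of RNA polymerase II.

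The gene with the smallest p on the lower side was BIN1, a membrane-curving adaptor, at 39.4 to 64.4 CPM in follicle-poor vehicle steers and 25.4 to 40.3 CPM with GLP-2, a log2 fold change of -0.58 (95% interval -0.87 to -0.29). Against other vehicle steers the value was -1.19. FMNL3, a formin that elongates actin filaments, was -0.57 here and -1.74 against other vehicle steers. The other genes of this group are given with both values side by side.

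TMEM200B had -0.49 here and -0.29 against other vehicle steers, JADE2 -0.51 and -0.32, DDA1 -0.45 and -0.39, RHBDD2 -0.46 and -0.40, and TESC -0.54 and -0.37. ACOT7, an acyl-CoA thioesterase, had -0.52 and -0.40, and NFX1 had -0.41 and -0.33. AHRR, the repressor of the aryl hydrocarbon receptor, had 10 to 35 counts in follicle-poor vehicle steers and 2 to 18 counts with GLP-2, so its log2 fold change of -1.97 rested on few reads. None passed the adjusted test, and the genes were picked for these values.

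The villus enterocyte list, of brush border enzymes and absorptive cell genes, had all 32 tested members above 0, where 50.9% of all tested genes were. None of the 32 was at nominal p, so the shared sign came with small values relative to the spread. The median was 0.46, against 1.03 in all 22 steers and 1.61 against other vehicle steers. With the body weight block as a term the villus median was 0.18, and with the marker mean as a covariate it was 0.10. Within casein-infused steers it was 0.60, with 11 of 32 genes at nominal p on the higher side against a background of 7.82%. TMPRSS15, the enteropeptidase that activates trypsinogen, was at 34.9 to 149 CPM in follicle-poor vehicle steers and at 54.9 to 382 CPM with GLP-2, with a log2 fold change of 0.79 (95% interval -0.06 to 1.64). Members of such a list vary together between steers, so their count is not that of independent genes.

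Peptide and amino acid transporters had a median log2 fold change of 0.51 (16 tested, 15 above 0, 2 at nominal p). SLC3A1, the heavy subunit of the cystine and dibasic amino acid transporter, stood at 58.2 to 96.6 CPM in follicle-poor vehicle steers and at 63.4 to 245 CPM with GLP-2 (0.81, 95% interval 0.20 to 1.43). SLC38A2, a sodium-coupled neutral amino acid transporter, had 0.39 (0.09 to 0.70). Within casein-infused steers alone the list median was 0.09, yet 6 of 16 genes were at nominal p on the higher side, against a background of 7.82%. None was at nominal p on the lower side, and SLC3A1 had 0.97 there.

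Fat absorption genes had a median of 0.38 (22 of 23 above 0). Of these, 2 were at nominal p. With the marker mean as a covariate the median was -0.005. SCARB1, the scavenger receptor for lipoprotein and dietary lipids, was at 21.6 to 31.8 CPM in follicle-poor vehicle steers and at 22.9 to 252 CPM with GLP-2 (1.5, 95% interval 0.37 to 2.64), while other vehicle steers stood at 33.6 to 109 CPM. The SCARB1 value was 0.58 with the block as a term and 0.79 with the marker mean as a covariate. ABCA1, the cholesterol exporter, had 0.73 here and -0.23 against other vehicle steers. Both genes thus had a larger value against follicle-poor than against other vehicle steers, whereas the list median against the latter was 1.49.

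Vitamin A and xenobiotic enzymes had a median of 0.38 (19 of 22 above 0, 2 at nominal p), which was -0.08 with the marker mean as a covariate. BCO2, which cleaves carotenoids, stood at 134 to 382 CPM in follicle-poor vehicle steers and at 237 to 1382 CPM with GLP-2 (1.01, 95% interval 0.20 to 1.82). RDH11, a retinal reductase, had 0.72 (0.24 to 1.21). Sphingolipid and lysosomal glycan enzymes had a median of 0.29, and the 2 of 28 at nominal p were GLB1, the lysosomal beta-galactosidase (0.48), and SPTLC1, a subunit of the enzyme that starts sphingolipid synthesis (0.42). GGTA1, which adds alpha-galactose to cell surface glycans, was at 28.7 to 61.0 CPM in follicle-poor vehicle steers and at 38.0 to 150 CPM with GLP-2 (1.07, 95% interval 0.34 to 1.81).

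Energy metabolism was uneven. NNT, the mitochondrial transhydrogenase that makes NADPH, stood at 81.2 to 162 CPM in follicle-poor vehicle steers and at 116 to 303 CPM with GLP-2 (0.64, 95% interval 0.20 to 1.08), against 1.16 for other vehicle steers. It was the single member of 44 tested oxidative phosphorylation genes at nominal p, and the list median was -0.04. In the tricarboxylic acid cycle list (median 0.11), the cytosolic enzymes IDH1 (0.52) and ACO1 (0.40) were at nominal p among 27 tested. Fatty acid oxidation and peroxisome genes had a median of 0.23 with 0 of 26 at that level, and one of -0.08 with the marker mean as a covariate. CAT, the catalase of this list, had 0.37 (95% interval -0.25 to 0.99).

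Tight and adherens junction genes, which seal the epithelium, held more genes at nominal p than the other epithelial lists. Of 31 tested, 6 were at that level, all higher with GLP-2 and against a background of 2.79%, and 30 had a value above 0. The median was 0.29, against 0.70 in all 22 steers, where 16 passed the adjusted test. With the block as a term the junction median was 0.20, and with the marker mean as a covariate it was 0.12. NECTIN3, an adhesion molecule, was at 10.2 to 22.8 CPM in follicle-poor vehicle steers and at 16.3 to 37.6 CPM with GLP-2 (0.71, 95% interval 0.23 to 1.20). MARVELD3, a tight junction membrane protein, had 0.80 (0.21 to 1.4). The other 4, singled out after their values were seen, were CDH1 (0.57), CLDN1 (0.79), CLDN7 (0.46) and LIMD1 (0.49).

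GLP2R, the receptor of the injected hormone, was named after the values were seen. Its mean level was 8.6 CPM with GLP-2 and 11.25 CPM in follicle-poor vehicle steers, a log2 difference of -0.43 (95% interval -1.75 to 0.89). Neither direction was detectable at this spread. In the list of receptor, ERBB, insulin and Hippo signaling genes, 4 of 35 tested members were at nominal p, and all 4 were receptor tyrosine kinases, higher with GLP-2.

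INSR, the insulin receptor, stood at 5.80 CPM in casein block 2, 14.0 in casein block 5, 14.3 in control block 2, 14.5 in casein block 4 and 22.4 in casein block 6, and at 16.6 to 37.9 CPM with GLP-2. Except for casein block 6, the follicle-poor steers lay below every GLP-2 steer. The log2 fold change was 0.68 (95% interval 0.17 to 1.20), against 1.66 for other vehicle steers. ERBB3, the neuregulin receptor, was at 173 to 387 CPM in follicle-poor vehicle steers and 287 to 963 CPM with GLP-2 (0.81, 0.17 to 1.44). EGFR (0.82) and ERBB2 (0.61), not covered by the naming rule, completed the 4, and the list median was 0.19. With the block as a term INSR had 0.41, ERBB3 had 0.50 and the list median was 0.06. With the marker mean as a covariate these values were 0.47, 0.36 and 0.16.

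Wnt and crypt stem cell genes had a median of 0.24 here, 0.04 in all 22 steers and -0.15 against other vehicle steers. WNT11 had 0.44 (95% interval 0.07 to 0.81) and the receptor FZD3 had 0.54 (0.002 to 1.07), the 2 of 24 at nominal p. Within casein-infused steers the list median was -0.27, with 2 of 22 genes at nominal p on the higher and 3 on the lower side, and with the block as a term it was 0.003. LGR5, which marks crypt base stem cells, was too low for the test. SFRP5, a secreted Wnt inhibitor named after the values were seen, had a mean of 0.79 CPM with GLP-2, 0.63 in follicle-poor and 43.78 in other vehicle steers, so its log2 fold change of -4.92 in all 22 steers was 0.25 here (95% interval -1.29 to 1.78).

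**Figure D5:**
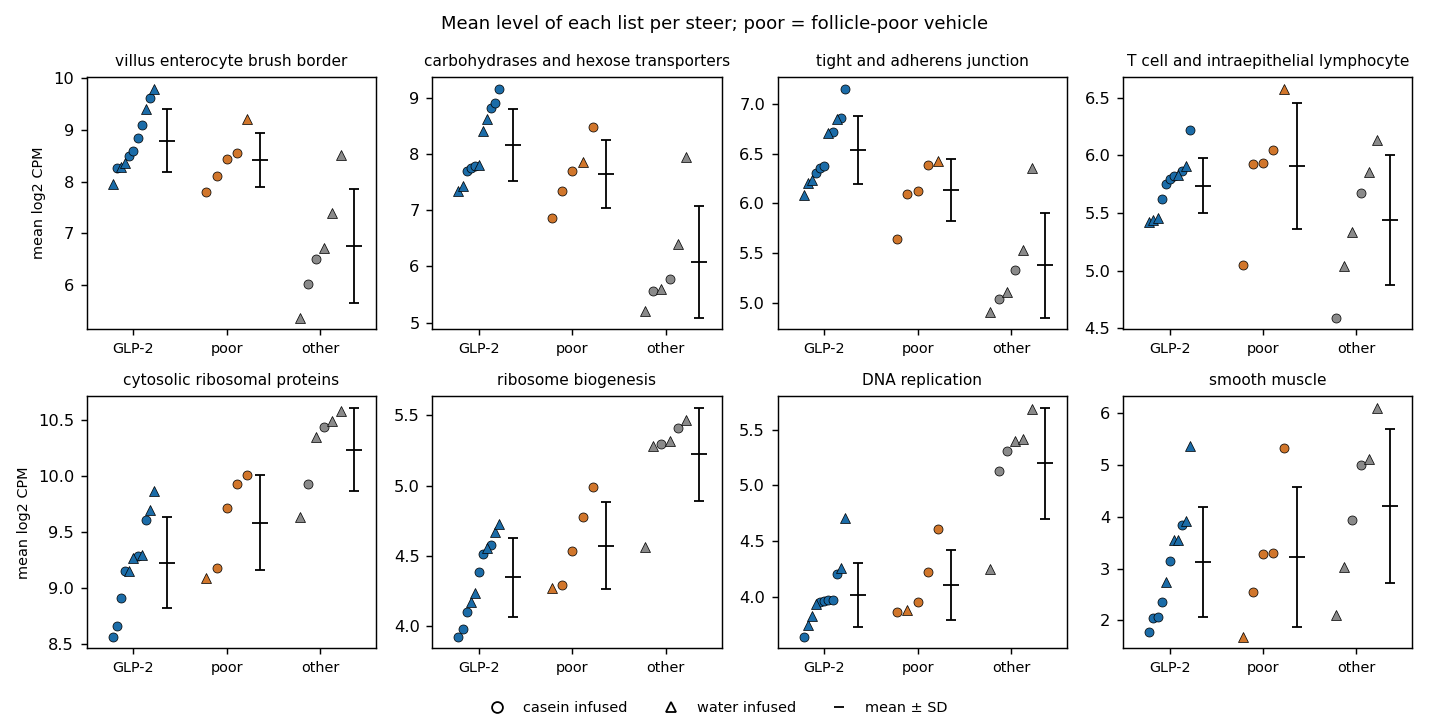
Mean log2 CPM of the members of 8 gene lists in each steer, with circles for casein-infused and triangles for water-infused steers and a bar for the mean ± SD of the GLP-2, follicle-poor vehicle and other vehicle groups. DNA replication and villus levels of follicle-poor vehicle steers lie near those of GLP-2 steers, and both groups of the ribosomal panel overlap.

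Cell cycle genes, which are active in crypts and in germinal centers, had smaller differences here than in the full design. In the DNA replication list, 24 of 37 genes passed the adjusted test as lower with GLP-2 in all 22 steers and 1 as higher, and 0 of 37 passed here, with 0 at nominal p. Its median log2 fold change was -0.85 in all 22 steers, -1.23 against other vehicle steers and -0.14 against follicle-poor ones. The 2 members with the smallest p here, the polymerase subunits POLA1 (0.35, 95% interval -0.01 to 0.71) and POLD2 (0.34, -0.01 to 0.69), were on the higher side. POLD2 was -0.61 against other vehicle steers. The list median was 0.02 without casein block 2 and 0.12 with the marker mean as a covariate.

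The mitotic list gave a median of -0.06 here (31 tested, 0 at nominal p) and -0.73 in all 22 steers. It was 0.20 without casein block 2 and 0.38 with the marker mean as a covariate. BIRC5, the survivin gene of dividing cells, was at 12.9 CPM in control block 2, 18.2 in casein block 4, 23.9 in casein block 6, 36.9 in casein block 5 and 57.8 in casein block 2, and at 13.6 to 46.2 CPM with GLP-2. Its order among the follicle-poor steers was that of their marker mean. Without casein block 2 the log2 fold change of BIRC5 went from -0.36 to 0.0099. The summed level of the 31 mitotic genes was 403.7 to 1371 CPM with GLP-2, 452.0 to 1041 CPM in follicle-poor and 607.5 to 1997 CPM in other vehicle steers.

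Genes for the protein synthesis machinery lay mostly on the lower side, and none passed the adjusted test. All 73 tested cytosolic ribosomal protein genes were lower in mean level with GLP-2 than in follicle-poor vehicle steers, 14 of them at nominal p against a background of 3.20%. The median was -0.40, against -0.75 in all 22 steers, where 60 of 73 passed the adjusted test, and -1.0 against other vehicle steers. RPS13 stood at 311 CPM in control block 2, 399 in casein block 6, 472 in casein block 4, 531 in casein block 5 and 1070 in casein block 2, and ran from 192 through 336 to 499 CPM with GLP-2. Casein block 2 was far above the rest, and without it the log2 fold change of RPS13 went from -0.72 to -0.35 and the list median from -0.40 to -0.27.

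RPL11 had -0.54 (95% interval -1.0 to -0.09) and, without casein block 2, -0.25. Ribosome biogenesis factors had a median of -0.26 with 48 of 50 below 0 and 7 at nominal p. BRIX1, which assembles the large subunit, was at 17.5 to 29.1 CPM in 4 follicle-poor steers and at 73.5 CPM in casein block 2, and at 14.6 to 26.5 CPM with GLP-2, and its value of -0.71 went to -0.22 without casein block 2. POLR1C, a subunit of RNA polymerases I and III, had -0.47, and -0.22 without casein block 2. The values of RPS13, RPL11, BRIX1 and POLR1C were thus smaller without casein block 2, which had the highest marker mean among the follicle-poor steers. Without it the list medians were -0.27 for cytosolic ribosomal protein genes and -0.14 for ribosome biogenesis factors. Without control block 2 these medians were -0.51 and -0.33. The part of marker content in these values was not tested. With the marker mean as a covariate the median was -0.15 for cytosolic ribosomal protein genes and -0.014 for ribosome biogenesis factors.

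Mitochondrial ribosomal protein genes had a median of -0.20 (46 of 52 below 0, 4 at nominal p), with MRPL21 at -0.69 and MRPS23 at -0.53. Without casein block 2 MRPL21 had -0.24, and with the marker mean as a covariate the list median was -0.07. Translation factors had a median of -0.11, and the 2 of 35 at that level were EIF5B (-0.40) and EIF3B (-0.36). Summed over their members, cytosolic ribosomal protein genes took 30999 to 77646 CPM with GLP-2, 44902 to 88787 CPM in follicle-poor vehicle steers and 66450 to 128883 CPM in other vehicle steers. The first 2 ranges overlapped over most of their length.

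Within casein-infused steers the comparison was 6 casein + GLP-2 steers against the 4 follicle-poor casein steers, in which edgeR called 0 of 14203 genes (smallest adjusted p 0.304). At nominal p were 2138 genes (15.1%), 1111 on the higher (7.82%) and 1027 on the lower side (7.23%), a larger share than the 5.99% of the pooled comparison. Of the 73 cytosolic ribosomal protein genes, 53 were at nominal p on the lower side and the median was -0.71. Of 28 sphingolipid and lysosomal glycan genes 12 were higher, of 31 junction genes 14, and of 23 fat absorption genes 10. SLC5A1 (1.75) and LCT (1.70) had larger values there than in the pooled comparison. That set kept casein block 2 and left out control block 2. Of the follicle-poor steers, control block 2 had the lowest marker mean (1.01), the lowest RPS13 and the highest LCT and SLC5A1. The vehicle steers kept had marker means of 1.67 to 3.24, against 0.941 to 2.64 in casein + GLP-2 steers. The part of this in the larger values was not tested. With water infusion a single follicle-poor vehicle steer was left, so no such comparison was made.

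Other cell types differed between steers inside each group. Smooth muscle genes summed to 86.7 to 1023 CPM with GLP-2, 107.0 to 971.0 CPM in follicle-poor vehicle steers and 171.3 to 1837 CPM in other vehicle steers, with a median log2 fold change of -0.30 here and -1.02 in all 22 steers. Within casein-infused steers the smooth muscle median was -1.49, with 9 of 15 genes at nominal p on the lower side, and the part of this in the ribosomal values was not tested. Without casein block 5 it was 0.66, and with the marker mean as a covariate 0.83, so its direction depended on the steers and the fit. Fibroblast and matrix genes had a median of 0.15 here, -0.79 within casein-infused steers and -0.50 in all 22, so their direction depended on which vehicle steers were used. POSTN, a matrix protein, ranged from 1.06 to 35.8 CPM in follicle-poor vehicle steers and from 3.20 to 147 CPM with GLP-2.

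Endothelial and lymphatic genes had a median of -0.44 (12 of 16 below 0). That median was -1.29 within casein-infused steers, 0.77 without casein block 5 and 0.88 with the marker mean as a covariate. MADCAM1, the vessel ligand through which lymphocytes enter mucosa, was at 13.3 CPM in casein block 5 and at 0 to 2.52 CPM in the other 4 follicle-poor steers, and at 0 to 6.56 CPM with GLP-2, and its value of -1.21 became 0.87 without casein block 5. Its direction rested on that steer.

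T cell genes, unlike B cell genes, had their lowest median against follicle-poor vehicle steers. Over 27 tested members the median was -0.31 here, -0.05 in all 22 steers and 0.19 against other vehicle steers. CCL5, a chemokine of cytotoxic lymphocytes, stood at 332 CPM in casein block 5, 512 in casein block 6, 616 in casein block 2, 677 in casein block 4 and 1101 in control block 2, against 213 to 679 CPM with GLP-2 and 189 to 649 CPM in other vehicle steers. CD3E, the T cell receptor subunit, had a log2 fold change of -0.50 here and -0.01 against other vehicle steers. Control block 2 was highest for both genes, and within casein-infused steers the list median was 0.02. These are lymphocyte genes and were not tested.

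Plasma cell and IgA transport genes had a median of -0.30. JCHAIN, which joins IgA dimers, spanned 62.0 to 1713 CPM in follicle-poor vehicle steers and 49.3 to 1744 CPM with GLP-2, and PIGR, the epithelial IgA transporter, was at 1793 CPM in control block 2 and at 9966 to 11619 CPM in the 4 casein steers, against 4161 to 13460 CPM with GLP-2. Neither group stood apart. Macrophage and dendritic cell genes had a median of 0.26 (13 of 17 above 0), with the lysosomal protease gene CTSS at 0.62 (95% interval 0.07 to 1.16). Mast cell and granulocyte genes had a median of 0.21 with 0 of 11 at nominal p. Within casein-infused steers these 2 medians were -0.03 and -0.01.

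Secretory lineages showed small differences. Goblet and Paneth-like genes had a median of 0.26, and the 2 of 13 at nominal p were the transcription factor gene CREB3L1 (0.51) and the mucin glycosylating enzyme gene GALNT12 (0.38). The goblet median was -0.12 within casein-infused steers and -0.03 with the block as a term. Enteroendocrine genes had a median of 0.24 with 0 of 12 at that level, and of -0.11 with the block as a term. GCG, the precursor gene of GLP-2 itself, was at 4.40 CPM in control block 2 and at 10.1 to 21.2 CPM in the 4 casein steers, and at 11.5 to 48.1 CPM with GLP-2 (0.63, 95% interval -0.13 to 1.38), and its sign turned within casein-infused steers (-0.11).

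The remaining lists had medians between -0.18 and 0.13 in the pooled comparison. Interferon and antigen processing genes had a median of 0.03, with the immunoproteasome subunits PSMB10 (-0.54) and PSMB8 (-0.33) the 2 of 31 at nominal p. The interferon median was 0.34 within casein-infused steers. Epithelial defence genes had a median of 0.13 and DUOX2, an oxidase that makes hydrogen peroxide, a wide interval (1.91, 95% interval -0.18 to 4.00). The medians were -0.01 for unfolded protein and amino acid stress genes and -0.18 for immediate early and heat shock genes, with 0 genes in either at nominal p. Of the 19 tested immediate early and heat shock genes, 16 were below 0.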

How the data were processed

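RNA-seq of jejunal mucosa was used for 22 steers. Per the labels and the study's methods, the authors trimmed reads with fastp, aligned them to ARS-UCD1.2 with HISAT2 2.0.5, counted reads per gene with featureCounts 1.5.0-p3 and deposited raw counts for 27570 genes. The authors also deposited FPKM values (counts per gene length and library size), used here only as an alternative. Each count column was matched to 1 sample, and library totals ran from 8809666 to 28447810, so counting error is large for genes with few counts.

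Vehicle steers were ranked by the mean log2(CPM + 1) of 5 markers. Counts were filtered by filterByExpr (minimum count 10), scaled by TMM and compared by the quasi-likelihood test of edgeR 4.0.16 in R 4.3.3 with Benjamini-Hochberg adjustment over all tested genes (threshold 0.05, tendency up to 0.1). Intervals are 95% intervals from the standard error of that fit. CPM in the text is TMM-scaled, with a prior count of 2 added on the log2 scale. The members and lists were chosen with earlier results of these data known. The 34 lists held 975 symbols, of which 932 were matched. Named genes are the 5 markers, 11 carbohydrase, transporter and regulator genes the study tabulates, the 12 genes with the smallest p in each direction outside the lymphocyte lists, the 5 with the smallest p among genes higher with GLP-2 in all 22 steers, the 2 members of each list with the smallest p and, for lymphocyte lists, the 2 with the highest mean. The results of 4 of these genes are not reported here.

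Alternatives were other normalizations and filters, DESeq2 1.42.0, limma 3.58.1 on log2(FPKM + 1) and log2(FPKM + 0.1), a robust spread, a fit with 3 groups, the replicate block, infusion or the marker mean as terms, a gene length correction, 4 or 6 vehicle steers, another marker list, casein-infused steers alone, and leaving out each steer. The procedure was tested on simulated data. Steers were grouped into body weight blocks by design. Deviations of 8 pairs of a vehicle and a GLP-2 steer from the same block had a mean correlation of 0.131 (-0.201 to 0.510). For 47 pairs from different blocks it was -0.0228. The main fit had no block term, and the block was used only in alternative fits.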

Additional observations from a re-analysis of the deposited data

Results flagged for a closer look

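Within GLP-2 steers, casein + GLP-2 steers or follicle-poor vehicle steers, 17 of 312 sets of log2 CPM values held 1 steer far from the rest (a gap to the next steer, as a share of the whole range, above Dixon's critical value). Chance alone flags about 5% of such sets. No explanation was tested.

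Casein block 2, the follicle-poor vehicle steer with the highest marker mean, was the lowest of its group for GATA4 (gap share 0.719, 7.17 on the log2 CPM scale where the others began at 7.82), TREH (0.712) and GLB1 (0.729), and the highest for S100A12 (0.76). Casein block 6 was the highest for SI (0.829, 10.87 where the others ended at 9.52) and the lowest for NFX1 (0.716). Control block 2 was the lowest for PIGR (0.918, 10.81 where the others began at 13.28). Casein block 4 alone had a count of BOLA-DYB (gap share 1).

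Among casein + GLP-2 steers, block 5 was the highest for CXCL13 (0.773), block 1 the highest for GLB1 (0.785) and the lowest for PROX1 (0.662), block 6 the lowest for SI (0.629) and block 4 the lowest for SLC2A5 (0.633). Among GLP-2 steers infused with water, block 1 was the lowest for WNT11 (0.745) and GALNT12 (0.716), block 5 the highest for CPA3 (0.863) and block 6 the lowest for BOLA-DYB (0.804).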

How the results depend on the processing

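Against follicle-poor vehicle steers the count at the adjusted threshold of 0.05 was 0 in every alternative that was run, the fits without 1 steer included (range 0 to 0). Counts at nominal p ran from 200 (replicate block with gene length correction) to 2138 (casein-infused steers alone), against 873. In between lay 201 with the replicate block, 465 with the marker mean as a covariate, 582 in a fit with 3 groups and 1535 of 21620 genes without a filter. Leaving out 1 steer gave 409 (without casein block 2) to 1471 (without control block 2).

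In all 22 steers the count of 1881 became 689 with the replicate block, 2999 by the DESeq2 Wald test and 0 with the marker mean as a covariate. In the last of these fits the marker mean and the injection largely went together, so it separates them poorly. Against follicle-poor vehicle steers no gene was called without the block, so no call of a named gene could be lost with it. Unchanged calls therefore do not show that the results were independent of the block. The count at nominal p there was 873 without the block and 201 with it. Some log2 fold changes of named genes turned sign. With the marker mean as a covariate, the markers and lymphocyte genes that turned were CD79B (0.16), CR2 (0.087), MS4A1 (0.29), JCHAIN (1.23), PIGR (0.12), PLCG2 (-0.11) and STAP1 (-0.17), and the others were GATA4 (-0.069), SLC2A5 (-0.37), MADCAM1 (0.92), HSD17B4 (-0.013), BIRC5 (0.29), KIF23 (0.16) and PLN (0.11). JCHAIN also turned without casein block 5, and STAP1, at 0.016 in the comparison as reported, under several alternatives. With the block CDX2 (-0.016) and SLC2A5 (-0.22, or -0.23 with the length correction) turned. SLC2A5 was -0.15 by limma on log2(FPKM + 0.1). Within casein-infused steers GCG (-0.11), COL14A1 (-0.11) and POSTN (-0.10) turned. Without casein block 2, which is the same fit as with the 4 lowest vehicle steers, S100A12 and BIRC5 turned, and without casein block 5 MADCAM1 and PLN, with ranges over the fits without 1 steer of -1.04 to 0.26 (S100A12), -0.56 to 0.0099 (BIRC5), -1.82 to 0.87 (MADCAM1) and -1.58 to 0.53 (PLN). The cause was not tested. The comparison among water-infused steers was not run, with 1 vehicle steer.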
